A study of Homo sapiens with 47 samples.

Results

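The genes described here are 10 that encode proteins of the mitotic chromosome, the nuclear envelope and their assembly: TOP2A, SMC4, NCAPD2, MKI67, HMGB2, TMPO, LBR, ANP32E, CBX5 and CKAP5. They were chosen by name, not by a measured value, though with earlier results of these data known. They are 10 of 18651 gene rows in a table of unique molecular identifier (UMI) counts. All 10 passed the minimum of 20 UMIs over all cells, as did 9088 genes in all. The table covers 47 single cells of HEK293, a long-established line grown from human embryonic kidney cells and carrying adenovirus DNA. The cells were grown in serum-containing medium without a named treatment, caught in 1 microfluidic circuit and sequenced in 1 run, per the labels, so there are no groups to compare. The table's column names carry the word "both", which no label explains, so whether each count combines more than 1 set of reads is not known. Cells are named by the number in their labels, and no culture or passage is named, so the 47 cells stand for 1 sample and no test between conditions was made. Spread over cells is therefore described, with no p-value.

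When a cell enters mitosis, condensin complexes and topoisomerase II fold and disentangle the copied DNA into compact chromosomes, and proteins such as Ki-67 coat the chromosome surface. The nuclear lamina and the membrane proteins anchored to it come apart and are rebuilt around the daughter chromosomes at mitotic exit. Many mRNAs of this machinery are transcribed late in the cell cycle and are used as markers of the G2 and M phases in dividing cultures such as HEK293. In single cells of an unsynchronised culture, such mRNAs are known to be plentiful in some cells and rare in others.

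Each count is of a 5' end of a captured cDNA, so counts were not divided by transcript length. The 10 genes differ in transcript length and the yield of full-length cDNA was not measured, so the levels of different genes are not ranked here. A cell had 29325 to 138647 endogenous UMIs (median 59689) and 2573 to 4717 UMIs of spike-in RNA, synthetic RNA added at 20000 molecules per cell. Cell 52 stood apart in composition, with 18.7% of its UMIs on mitochondrially encoded rows against a median of 5.46%. Several results are also given without it. Markers of fibroblasts had 13 UMIs in all and those of blood and immune cells 6, with a highest cell at 8 and 3. Of the neuronal markers, NEFM, NEFL, UCHL1 and INA had 462, 112, 817 and 15 UMIs, and kidney epithelial markers had 27. These values cover only the listed markers that had a row. Those were 4 of 7 neuronal, 2 of 6 kidney epithelial, 2 of 6 fibroblast and 1 of 6 blood and immune markers. How far such markers move with the genes below is given by their rho with the summed level of the 10, which was 0.06 for NEFM, 0.01 for NEFL and 0.13 for UCHL1.

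The 10 genes together had 3545 of 2919198 endogenous UMIs, or 0.121%. Their summed count was 13 in cell 23, the lowest, 67 in the median cell and 162 in cell 39, the highest. As a share of a cell's endogenous UMIs it ran from 0.0443% in cell 23 (exact binomial interval 0.0236% to 0.0758%) over a median of 0.109% to 0.197% in cell 53 (0.166% to 0.232%). The intervals are 95% and cover counting error only, and those of the lowest and the highest cell do not overlap. All 10 genes had a UMI in 23 cells, 38 cells had at least 9 of them, and cell 23 had the fewest, 6. TOP2A and HMGB2 gave 1587 of the 3545 UMIs (44.8%), so the summed level weights these genes most.

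**Figure D1:**
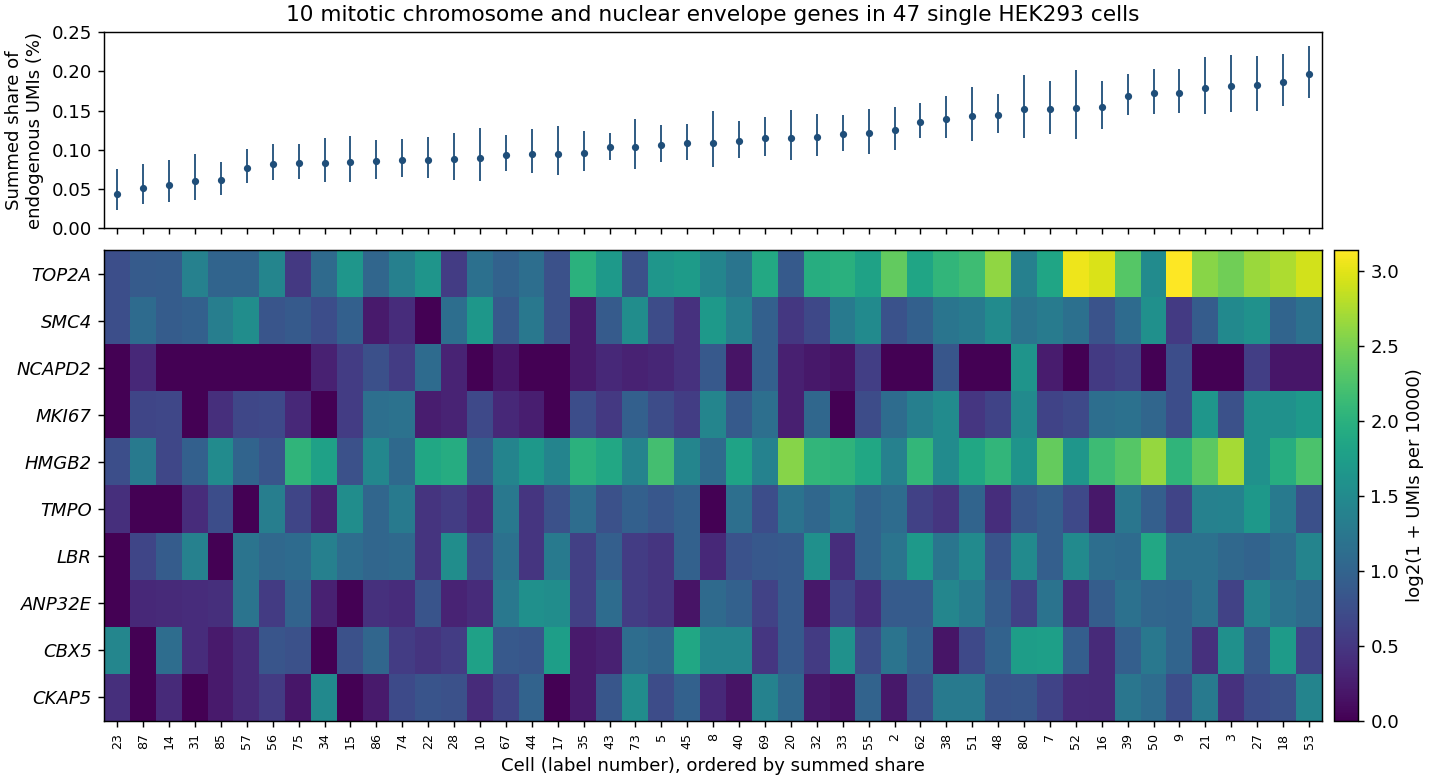
Upper panel: summed share of the 10 genes (percent of endogenous UMIs) in each of 47 cells, with 95% exact binomial intervals. Lower panel: log2(1 + UMIs per 10000 endogenous UMIs) of each gene in the same cells, ordered by summed share. The share runs from 0.0443% in cell 23 to 0.197% in cell 53, and TOP2A has its highest value in cell 9.

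Counts of single genes are given here for the cells at both ends of this range. Cell 53 had 47 UMIs of TOP2A, 27 of HMGB2, 16 of MKI67, 12 each of LBR and CKAP5, 9 of SMC4, 8 of ANP32E, 5 of TMPO, 4 of CBX5 and 1 of NCAPD2. Cell 23 had 5 UMIs of CBX5, 2 each of TOP2A, SMC4 and HMGB2, 1 each of TMPO and CKAP5, and 0 of NCAPD2, MKI67, LBR and ANP32E. Cell 23 had the lowest depth, 29325 endogenous UMIs, and 13 UMIs of the 10 genes in all. Its values of 0 and the order of its genes thus rest on few counts. When each gene's 5 highest cells by UMIs per 10000 were listed, cells 27 and 38 appeared for 4 genes, cells 21, 50 and 53 for 3 genes, and 18 cells for none. No cell was among the 5 highest for more than 4 of the 10. The counts that unrelated genes would give were not computed, so these do not show whether the genes share their highest cells.

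Spread over cells was put into 1 number per gene, an index of dispersion. It compares a gene's counts by chi-square with the counts due if every cell gave it the same share of endogenous UMIs, per degree of freedom, and counting error by itself gives 1. The 52 spike-ins with at least 20 UMIs had indices from 0.757 to 3.97 (median 2.11), taken against spike-in totals, and give the technical spread. A gene was called where its index was above the highest spike-in index. This was so for 1 of the 10 genes, TOP2A, and for 292 of the 9088 tested genes, or 3.21%. The median index was 2.51 for the 10 genes and 2.00 for all tested genes.

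**Figure D2:**
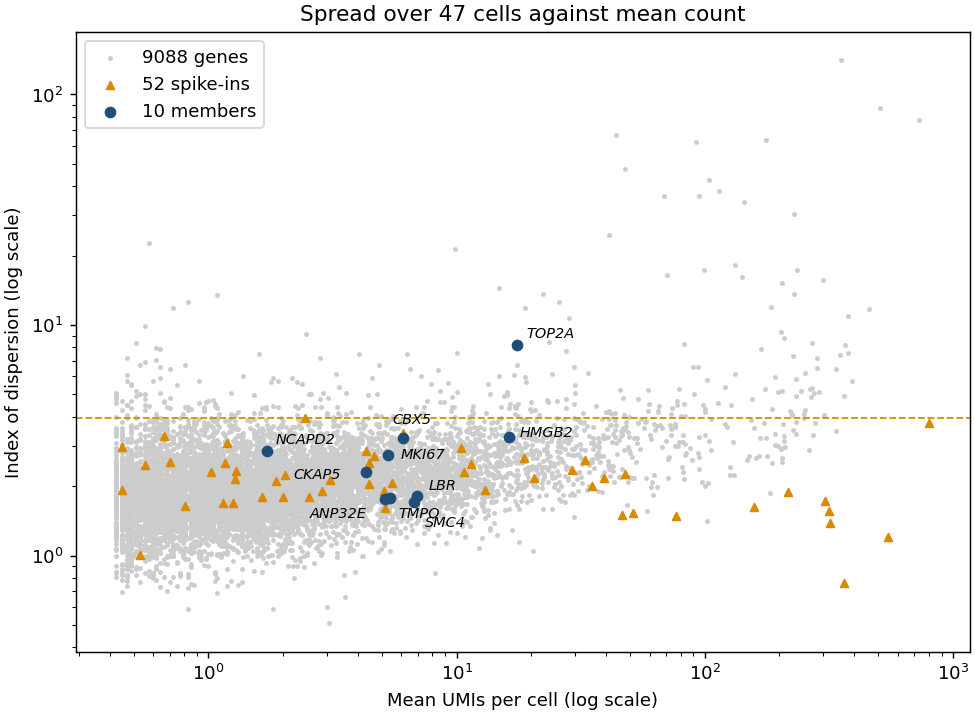
Index of dispersion over 47 cells against mean UMIs per cell, both on log scales, for 9088 genes (grey), 52 spike-ins (triangles) and the 10 genes (circles). The dashed line is the highest spike-in index, 3.97. TOP2A, at 8.18, is the only one of the 10 above it.

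TOP2A encodes topoisomerase II alpha, which passes one DNA duplex through another to separate sister chromatids and is a main component of the mitotic chromosome scaffold. It had 17.5 ± 15.1 UMIs per cell (SD, n = 47 cells, not scaled for depth), with 2 in the lowest cells, 14 in the median cell and 69 in cell 9. The next highest cells were 48 and 53 with 47 each, 16 with 45 and 18 with 40, while cells 23 and 28 had 2. Per 10000 endogenous UMIs it ran from 0.429 in cell 75 over a median of 2.13 to 7.80 in cell 9. Its index of 8.18 ranked 45 among 9088 genes, and the 5 spike-ins nearest to it in mean count had 1.92 to 2.66. The index was 6.96 without cell 9 and 7.98 without cell 52. It was 4.42 when every cell was thinned to 29325 UMIs, against a highest spike-in index of 3.35 when spike-ins were thinned as well; an index falls with the number of counts by construction. It was 7.36 in the 30 cells numbered up to 48 and 9.02 in the 17 above 48. Dividing by spike-in recovery, which takes the mRNA to be captured as well as the spike-ins, gave a median of 74.7 molecules per cell, from 11.3 to 293.

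MKI67 encodes Ki-67, which coats mitotic chromosomes and keeps them apart. It had 5.30 ± 4.55 UMIs per cell, 0 in 5 cells (17, 23, 31, 33 and 34), a median of 4 and 18 in cell 62, followed by 16 in cell 53 and 14 in cells 18 and 38. Its index was 2.72, within the range of the spike-ins. Ki-67 and topoisomerase II alpha mRNAs were the pair with the highest correlation of the 10 genes. Their Spearman's rho over the 47 cells, from UMIs scaled for depth on a log2(1 + value) scale, was 0.51, and it was 0.29 in thinned cells.

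Condensin was represented by a pair of genes. SMC4, a core ATPase subunit that both condensin complexes share, had 6.74 ± 4.13 UMIs per cell, 0 in cell 22, a median of 6 and 17 in cells 48 and 50. NCAPD2, a HEAT-repeat subunit of condensin I, had 1.72 ± 2.15 UMIs per cell, 0 in 18 cells, a median of 1 and 8 in cell 80, with 7 in cell 69. A count of 0 allows up to 3 UMIs, which is 1.02 per 10000 in cell 23 and 0.216 per 10000 in cell 43. After thinning NCAPD2 had a UMI in 19 cells and SMC4 in 43. Their indices, NCAPD2 first, were 2.85 and 1.71, within the spike-in range. That of NCAPD2 was above the 1.79 to 2.32 of the 5 spike-ins nearest to it in mean. The index of NCAPD2 was 1.78 in cells numbered up to 48 and 5.00 in those above, where cell 80 lies and where the highest spike-in index was 5.13. Without cell 80 it was 2.07 over the remaining cells. Both proteins are in the same complex, and their mRNAs had the lowest rho of the 45 pairs, -0.20 (-0.09 in thinned cells). Both mRNAs had a UMI in 28 cells, and the lowest of 45 values is low by selection.

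HMGB2, which binds and bends DNA and is related to the more abundant HMGB1, had 16.3 ± 10.8 UMIs per cell. It had 2 UMIs in the lowest cells, 14 and 23, a median of 13 and 45 in cell 50, followed by 38 in cell 39 and 37 in cells 43 and 62. Its index of 3.26 was below the highest spike-in but above the 1.92 to 2.66 of the 5 spike-ins nearest in mean. Scaled to spike-in UMIs in place of endogenous UMIs, its index was 5.29, above the spike-ins like that of TOP2A, as were the indices of 8.95% of all tested genes under that scaling. ANP32E, a chaperone that removes the histone variant H2A.Z from chromatin, had 5.17 ± 3.95 UMIs per cell, 0 in cells 15 and 23, a median of 4 and 16 in cell 43. Its index was 1.77. HMGB2 and ANP32E had a rho of 0.32 (0.31 in thinned cells), the pair that changed least among those at 0.3 or above.

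The nuclear envelope genes varied no more than the spike-ins. TMPO encodes LAP2, a family of lamina-associated proteins, and had 5.38 ± 3.69 UMIs per cell, 0 in cells 8, 14, 57 and 87, a median of 5 and 13 in cells 27 and 39. LBR, the lamin B receptor, is an inner nuclear membrane protein that binds lamin B and heterochromatin protein 1 and has sterol reductase activity. It had 6.96 ± 4.95 UMIs per cell, 0 in cells 23 and 85, a median of 6 and 26 in cell 62, with 23 in cell 50. Their indices were 1.77 and 1.82, and the rho between them was 0.08. TMPO-AS1, the antisense neighbour of TMPO, had 7 UMIs in 6 cells. The use of strand in counting is not given in the sources used here, so reads of these neighbours may not have been told apart.

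CBX5 encodes heterochromatin protein 1 alpha, which binds methylated histone H3. It had 6.09 ± 4.91 UMIs per cell, 0 in cells 34 and 87, a median of 5 and 22 in cell 45, followed by 18 in cell 33 and 16 in cell 18. Its index was 3.23, and 1.85 in thinned cells. In the 17 cells numbered above 48 it was 1.81, against 3.65 in the 30 up to 48. CKAP5, also called ch-TOG, is a microtubule polymerase of the spindle. It had 4.30 ± 3.75 UMIs per cell, 0 in cells 15, 17, 31 and 87, a median of 3 and 13 in cell 39, followed by 12 in cells 53 and 69. Its index was 2.30.

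The 10 genes varied together only in part. Of the 45 pairs, 5 had a rho of 0.3 or above, while 3.02% of all 41291328 pairs of tested genes did. These 5 were TOP2A with MKI67 (0.51), TOP2A with HMGB2 (0.44), HMGB2 with CKAP5 (0.34), HMGB2 with ANP32E (0.32) and NCAPD2 with MKI67 (0.32). Taken gene by gene, the share of all other tested genes at 0.3 or above was 7.18% for HMGB2, 6.66% for TOP2A and 1.51% for SMC4. The median rho was 0.14 over the 45 pairs and 0.02 over all pairs. In thinned cells 1 of the 45 pairs was at 0.3 or above, while 2.43% of all pairs were, and the median was 0.06 over the 45 pairs and 0.00346 over all pairs. The points share 1 run and their depth.

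**Figure D3:**
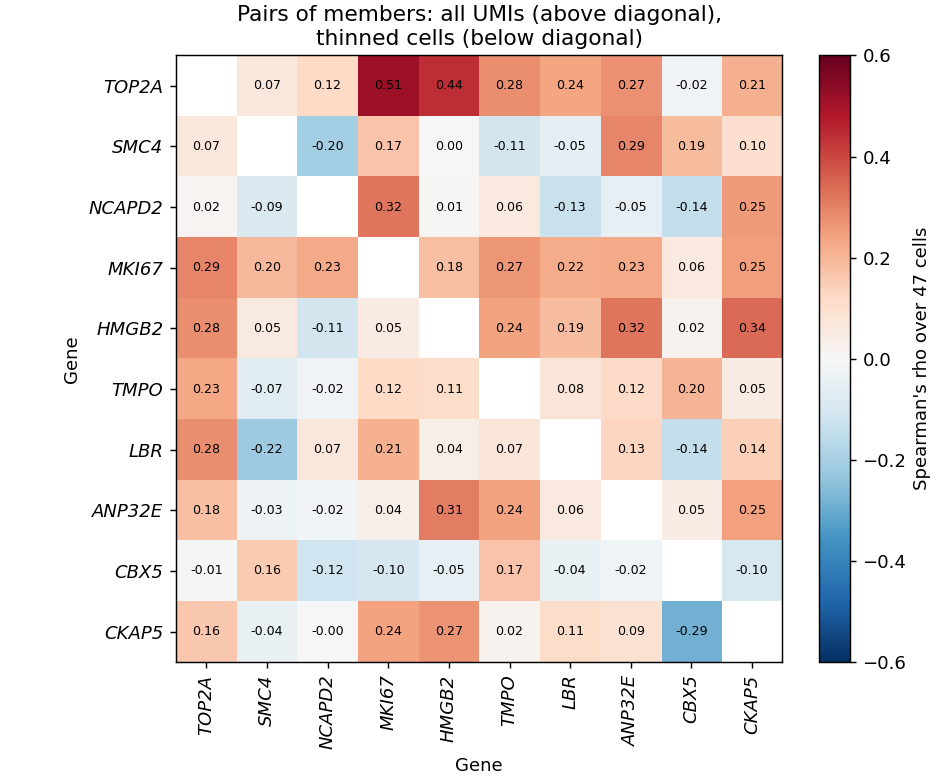
Spearman's rho over 47 cells for each pair of the 10 genes, from all UMIs above the diagonal and from cells thinned to 29325 UMIs below it. Above the diagonal the highest value is TOP2A with MKI67 (0.51) and the lowest is SMC4 with NCAPD2 (-0.20). CBX5 runs there from 0.20 with TMPO to -0.14 with LBR, and below the diagonal it has -0.29 with CKAP5.

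Each gene was also set against the summed level of the other 9. Of the 10, 5 had a rho of 0.3 or above: MKI67 (0.50), TOP2A (0.48), HMGB2 (0.42), ANP32E (0.35) and CKAP5 (0.33). The background is the 6.87% of 9078 other tested genes that reached 0.3 with the summed level of all 10. TMPO and LBR had 0.26 and 0.23, SMC4 0.12, CBX5 0.07 and NCAPD2 0.04. With any cell left out the count was 4 to 6, and without cell 52 it was 5. In thinned cells it was 2, against 4.43% of the other genes, and with spike-in scaling 8, against 36.4%. TMPO had 0.44 in cells numbered up to 48 and -0.07 in those above, while LBR had 0.05 and 0.67, CKAP5 0.18 and 0.66, and CBX5 -0.12 and 0.47. These differences between the label ranges were not tested.

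The summed share of the 10 genes was higher in cells with more of the other G2/M genes. Those are 44 genes with a row out of 45 further G2/M genes. The 45 largely follow a widely used single-cell list, which also holds all 10 described here. They are not that list unchanged, and CCNB1 and PLK1 are among them. Over 47 cells Pearson's r was 0.69 and Spearman's rho 0.66, and without cells 53 and 39, the farthest from the median, they were 0.63 and 0.62. Both label ranges gave nearly the same rho, 0.67 for cells with numbers up to 48 and 0.66 for the rest. Cell 53 was highest on both measures, with 0.197% for the 10 genes and 0.837% for the other G2/M genes. Without TOP2A and HMGB2, the summed level of the remaining 8 had a rho of 0.53 with the other G2/M genes.

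**Figure D4:**
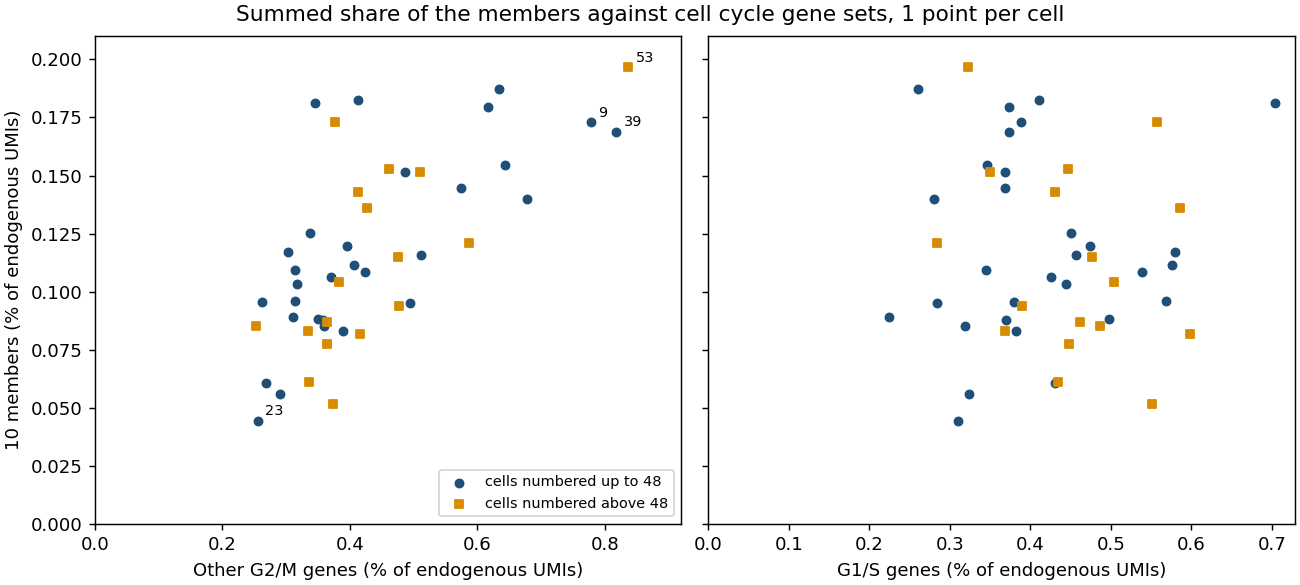
Summed share of the 10 genes against the share of the other G2/M genes (left) and of G1/S genes (right), all in percent of endogenous UMIs, with 1 point per cell and the label range marked. Spearman's rho is 0.66 on the left and -0.07 on the right, and cells 53, 39, 9 and 23 are numbered.

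With genes of the G1/S transition and with histone H4 the values lay near 0. The rho of the summed share was -0.07 with 42 G1/S genes and -0.07 with HIST1H4C, whose mRNA is made during DNA replication. For G1/S genes r was -0.03, and -0.18 without cells 3 and 10, and for HIST1H4C it was -0.09, and -0.06 without cells 8 and 15. The G1/S value depended on scaling: with spike-in scaling, which keeps differences in total mRNA between cells, rho was 0.51. In cells numbered up to 48 it was 0.12 and above 48 it was -0.26.

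Depth moved with the summed share. Its rho was 0.41 with endogenous UMIs and 0.41 with spike-in UMIs, and Pearson's r was 0.35 and 0.42. In cells numbered up to 48 the rho with endogenous UMIs was 0.62, and above 48 it was 0.17. Among single genes it was 0.46 for HMGB2, 0.44 for TOP2A, 0.38 for ANP32E and -0.05 for SMC4. With spike-in UMIs it was 0.41 for HMGB2, 0.40 for TOP2A and 0.37 for ANP32E. The part of depth in the pairwise values was not tested beyond the thinned values given above.

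Gene by gene, CKAP5 and TOP2A followed the other G2/M genes most closely. With their summed share CKAP5 had a rho of 0.61, TOP2A 0.53, HMGB2 0.45, ANP32E 0.41 and MKI67 0.36, and CBX5 had -0.04. The 44 genes were then taken singly. TOP2A had a rho of 0.3 or above with 18 of them, against 6.66% of all other tested genes, and its highest partners were UBE2C (0.62), which works with the anaphase-promoting complex, BIRC5 (0.50), the survivin subunit of the chromosomal passenger complex, and CDK1 (0.48), the mitotic kinase. CKAP5 reached 0.3 with 14, against 4.35%, led by CDK1 (0.41), PLK1 (0.41) and ANLN (0.41). HMGB2 and ANP32E each reached it with 11, against 7.18% and 5.12%. The first was led by the spindle checkpoint kinase BUB1 (0.45) and the second by the kinetochore motor CENPE (0.47). MKI67 reached it with 9, against 4.60%, led by the kinetochore subunit NUF2 (0.44).

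The other members reached 0.3 with fewer of the 44. LBR reached 0.3 with 4 of the 44 (3.47% of all genes), NCAPD2 with 3 (2.49%), TMPO with 2 (4.40%), SMC4 with 1 (1.51%) and CBX5 with 0 (1.76%). Their highest partners were KIF23 for LBR (0.40), TUBB4B for NCAPD2 (0.44), KIF11 for TMPO (0.44), the cytokinesis factor ECT2 for SMC4 (0.40) and GAS2L3 for CBX5 (0.27). Except for CBX5, these values were close to those of CKAP5 (0.41) and MKI67 (0.44) with their highest partners. TMPO was the only member with a rho of 0.3 or above with the summed G1/S genes (0.30), and it reached 0.3 with 3 of the 42 G1/S genes.

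**Figure D5:**
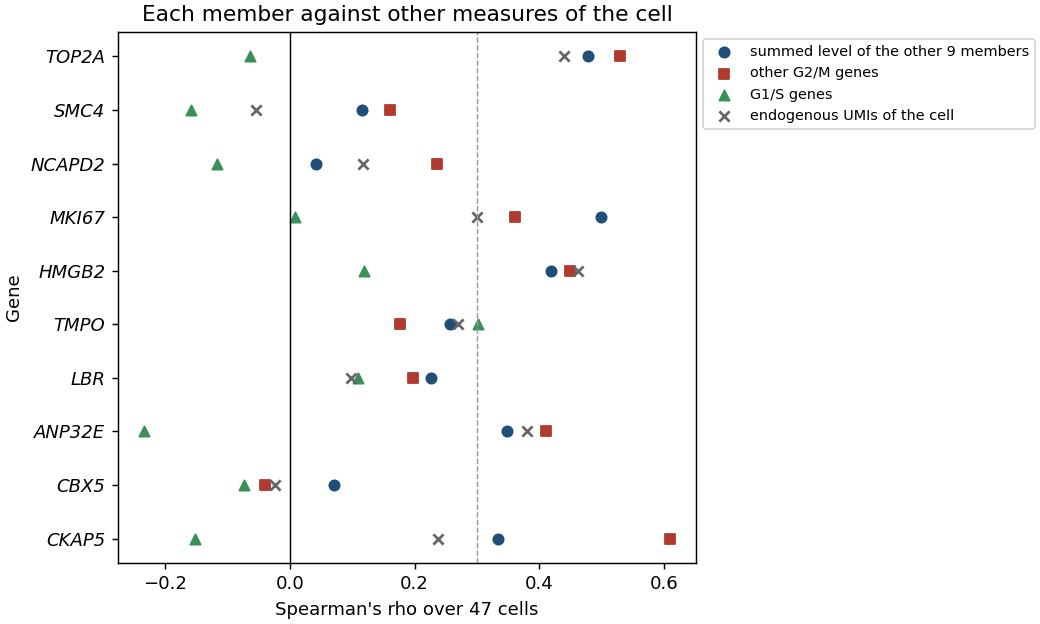
Spearman's rho over 47 cells of each of the 10 genes with the summed level of the other 9, with the share of other G2/M genes, with that of G1/S genes and with endogenous UMIs. The dashed line marks 0.3. CKAP5 has the highest value with the other G2/M genes (0.61), and CBX5 lies near 0 for all 4 measures.

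RefSeq promoter windows of build GRCh38.p14, 250 bases before to 50 after a gene's start, were at hand for 8 of the 10 genes. The UMI table was made on another build and holds no coordinates, so the windows serve only to show sequence. Late cell cycle promoters are known for a cell cycle homology region, TTTGAA or TTTAAA, and for CCAAT boxes bound by NF-Y, and both were searched on both strands. Windows are shown for TOP2A, MKI67 and CKAP5, which went with the other G2/M genes, and for NCAPD2 and LBR, which did so less. They read 5' to 3' along the gene, with matches of these motifs, or of their complements TTCAAA and ATTGG, in capitals.
TOP2A, chr17:40417847-40418146, minus strand: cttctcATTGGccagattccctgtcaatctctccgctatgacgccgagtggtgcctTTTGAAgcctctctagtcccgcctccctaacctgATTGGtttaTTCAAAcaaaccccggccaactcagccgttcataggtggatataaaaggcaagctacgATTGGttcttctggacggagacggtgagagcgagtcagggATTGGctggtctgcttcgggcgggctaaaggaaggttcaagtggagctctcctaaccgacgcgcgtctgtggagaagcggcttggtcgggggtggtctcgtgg
MKI67, chr10:128126374-128126673, minus strand: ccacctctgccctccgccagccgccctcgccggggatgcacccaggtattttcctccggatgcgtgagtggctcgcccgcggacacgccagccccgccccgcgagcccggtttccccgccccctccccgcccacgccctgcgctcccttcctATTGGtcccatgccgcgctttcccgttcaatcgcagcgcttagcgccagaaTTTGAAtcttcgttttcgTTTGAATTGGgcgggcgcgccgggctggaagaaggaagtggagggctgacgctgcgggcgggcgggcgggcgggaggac
CKAP5, chr11:46846231-46846530, minus strand: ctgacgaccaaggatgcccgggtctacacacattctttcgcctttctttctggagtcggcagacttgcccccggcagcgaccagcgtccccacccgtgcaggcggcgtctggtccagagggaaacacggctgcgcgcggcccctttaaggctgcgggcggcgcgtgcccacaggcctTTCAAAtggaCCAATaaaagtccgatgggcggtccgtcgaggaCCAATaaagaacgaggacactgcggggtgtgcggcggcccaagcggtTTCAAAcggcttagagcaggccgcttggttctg
NCAPD2, chr12:6493852-6494151, plus strand: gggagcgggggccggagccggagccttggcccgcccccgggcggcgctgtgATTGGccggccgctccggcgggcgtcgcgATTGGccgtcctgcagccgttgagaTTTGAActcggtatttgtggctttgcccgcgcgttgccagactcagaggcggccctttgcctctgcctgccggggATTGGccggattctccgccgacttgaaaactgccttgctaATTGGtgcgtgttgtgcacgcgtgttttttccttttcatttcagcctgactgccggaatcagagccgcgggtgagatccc
LBR, chr1:225428772-225429071, minus strand: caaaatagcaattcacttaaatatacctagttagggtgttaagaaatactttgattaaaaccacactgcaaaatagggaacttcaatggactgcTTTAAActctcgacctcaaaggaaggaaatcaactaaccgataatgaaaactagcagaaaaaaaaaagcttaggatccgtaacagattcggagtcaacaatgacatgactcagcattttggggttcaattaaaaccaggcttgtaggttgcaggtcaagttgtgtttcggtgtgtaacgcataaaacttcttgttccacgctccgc

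TTTGAA was in the windows of TOP2A, MKI67 and CKAP5 with 2 matches each, in that of NCAPD2 with 1 and in the first of 2 windows of SMC4 with 1, and it was in 15.2% of all 35116 promoter windows. In MKI67 the second match overlaps a CCAAT box on the other strand, TTTGAATTGG. CCAAT had 4 matches each in TOP2A and NCAPD2, 2 each in MKI67, CKAP5 and both overlapping windows of TMPO, 1 in each of 3 windows of CBX5 and 0 in LBR and SMC4, against 34.6% of all windows. Of the CBX5 windows, numbers 2 and 3 overlap and hold the same CCAAT match. TTTAAA, which reads the same on both strands and was in 12.2% of windows, was in LBR, TMPO and 1 window of CBX5. The E2F-type words TTTCGCGC, TTTGGCGC and GGCGGGAA were in none of these windows and in 0.515%, 0.652% and 3.16% of all windows. NCAPD2 thus holds the same words as TOP2A. A match is a description of the letters and not of binding.

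Related gene families were described by the same measures, each without the 10 genes themselves. Beside each count stand the background of 6.87% of genes at a rho of 0.3 or above with the summed level and 1.48% at -0.3 or below, and the median rho of 0.06 over all tested genes. Of the 6 other condensin subunits 0 reached 0.3 (median rho 0.09), with SMC2, the partner of SMC4, at 0.27 and the condensin I subunit NCAPH at 0.29. Of 17 cohesin genes 3 reached it (median 0.15): SMC1A, the cohesin ATPase, at 0.40, SGOL1, the shugoshin that protects centromeric cohesion, at 0.33, and ESPL1, separase, at 0.31. SMC1A had 7.66 ± 5.51 UMIs per cell, with 1 in the lowest and 20 in the highest cell. ESPL1 had 46 UMIs in 17 cells, so its value rests on few counts.

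Of 11 tested genes of the lamina and inner nuclear membrane 1 reached 0.3 (median 0.07), LMNB1 at 0.39, which encodes lamin B1, the ligand of LBR. It had 32 UMIs in 17 cells, so this value rests on few counts. Of 9 tested genes of heterochromatin protein 1 and its partners 1 reached it (median 0.10), CBX3, heterochromatin protein 1 gamma, at 0.38 with 28.2 ± 15.2 UMIs per cell. Of 9 genes of the HMGB and ANP32 families and H2A.Z 2 did (median 0.09), HMGB1 at 0.40 with 49.9 ± 25.1 UMIs per cell and VPS72, a subunit that deposits H2A.Z, at 0.30. H2AFZ, which encodes H2A.Z itself, had 121 ± 50.5 UMIs, an index of 5.37 and a rho of -0.10.

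Of 10 tested genes of the chromosome periphery, other topoisomerases and chromokinesins 1 reached 0.3 (median 0.11). It was TOP2B, which encodes topoisomerase II beta, at 0.30, while the nucleolar NPM1 had -0.02. Of 11 tested partners of CKAP5 and plus-end proteins 2 did (median 0.13), MAPRE1, the plus-end tracking protein EB1, at 0.36 and TACC2 at 0.30. TACC3, which carries ch-TOG to the spindle, had 0.06. The values of TOP2B and TACC2 rest on few counts, 70 UMIs in 30 cells and 50 UMIs in 22 cells. In each of these families 0 genes were at -0.3 or below. The other G2/M genes had 20 of 44 at 0.3 or above (median 0.30), led by UBE2C at 0.60, ANLN at 0.55, CENPE at 0.52 and AURKB at 0.49. The G1/S genes had 1 of 42, the deubiquitinase USP1 at 0.39, and 2 at -0.3 or below (median -0.03). Above the highest spike-in index were 8 of the 44 other G2/M genes, UBE2C first at 13.6, and 2 of the 42 G1/S genes, PCNA first at 4.42, beside 3.21% of all genes.

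The genes most like each of the 10 were sought by Spearman's rho over 47 cells among genes with at least 100 UMIs, 3685 for NCAPD2, itself under that minimum, 3684 for each other member and 3676 for the summed level. For the summed level, 5 of the 20 highest were in the G2/M list, as were 0.843% of the genes compared. They were UBE2C, ANLN, CENPE, AURKB and CDK1. KPNA2, a nuclear import receptor, was at 0.54 with 30.0 ± 19.1 UMIs and an index of 5.51. NUP153, a nuclear pore protein, was at 0.47, and others among the 20 were SPEN, NAA16, BCOR, OSBP, GOLIM4, NFIA, RABGGTB, RBM25, KIAA0020, DDIT4, DSP and TXNRD1, from 0.46 to 0.54. The lowest were the ribosomal protein genes RPL36 (-0.60), RPLP2 (-0.58) and RPL31 (-0.54), followed by COX16 (-0.52) and PRELID1 (-0.52).

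For single members, the 3 genes most alike were UBE2C (0.62), CCNL2 (0.60) and ATL2 (0.55) for TOP2A, and COPS5 (0.57), TOP2A itself (0.51) and PTPN11 (0.48) for MKI67. They were SRSF11 (0.48), SRRT (0.47) and HSF2 (0.42) for SMC4, and RBM10 (0.55), DDIT4 (0.46) and PPM1K (0.46) for NCAPD2. HMGB2 was closest to SNX2 (0.55), HNRNPC (0.52) and EPRS (0.50). ANP32E was closest to HARS (0.57), CPSF6 (0.56) and PTTG1 (0.54), the last encoding securin, the inhibitor of separase. TMPO was closest to POM121C (0.54), a nuclear pore gene, GBAS (0.50) and HLTF (0.49). LBR was closest to GOLIM4 (0.64), SF1 (0.62) and GLA (0.51), CBX5 to SARS (0.56), RP11-304L19.5 (0.50) and NDUFB5 (0.49), and CKAP5 to DDX21 (0.59), MRPL44 (0.55) and LTV1 (0.51). Of these places 1 was taken by another of the 10 genes, and such genes made up 0.220% of those compared. The highest of so many values is high by selection, and no test was made of any of them.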

How the data were processed

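Single HEK293 cells were lysed in a Fluidigm C1 circuit with spike-in RNA, and oligo-dT-primed cDNA was tagged with UMIs at the 5' end and amplified in 18 PCR cycles, per the labels' protocols. The table the authors deposited holds raw UMI counts, whole numbers for each gene in each cell. Named in the submitters' processing notes are cutadapt 1.2.1, STAR 2.4.0a and the builds hg19 and GRCh37. Annotation, UMI collapsing, strand use, multi-mapping reads and the treatment of doublets are not given in the sources used here. A repeated header line (0.0602% of all values) was left out, and 0 columns lacked a sample. Totals, shares, indices of dispersion and Spearman correlations of log2(1 + scaled UMIs) were computed with Python 3.11.15, numpy 2.4.6 and scipy 1.17.1. Alternative scalings used edgeR 4.0.16 (TMM) and DESeq2 1.42.0 (poscounts). Thinning was 1 random draw. Index and correlation code was tested on simulated data. Named genes are, per list, among the 4 with the highest rho and the one with the highest index, per member the 3 most alike and its highest G2/M partners, and for the summed level the 20 highest, of which 1 is not reported here, and 5 lowest. The genes and lists were chosen with earlier results of these data known. Other settings tried were a 100-UMI minimum, TMM, size factors, spike-in scaling, thinning, Pearson correlation, each cell left out, label ranges, and mitochondrial rows left out.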

Additional observations from a re-analysis of the deposited data

How the results depend on the processing

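With spike-in scaling, 2 of the 10 genes lay above the spike-ins (TOP2A and HMGB2; 8.95% of all tested genes). The median pairwise rho was 0.32 (0.09 over all pairs), and 8 genes reached 0.3 with the other 9, while 36.4% of the other genes did so with the summed level. The summed level had a rho of 0.83 with other G2/M genes, 0.51 with G1/S genes, 0.26 with HIST1H4C and 0.78 with endogenous UMIs. In thinned cells 2 genes reached 0.3 with the other 9 (4.43% of the other genes). The summed level there had a rho of 0.63 with other G2/M genes and 0.49 with endogenous UMIs. In cells numbered up to 48 the rho of the summed level was 0.12 with G1/S genes and 0.62 with endogenous UMIs, and above 48 it was -0.26 and 0.17. The summed level without TOP2A and HMGB2, a setting chosen after seeing the data, had 0.26 with endogenous UMIs. The cause of these shifts was not tested. For single genes, 106 of 130 indices and correlations under 7 settings stayed within the limit set (1.5 times for an index, 0.147 for a rho), and with a cell left out 0 of 940 passed it. All 10 indices and all 10 correlations with the other 9 were lower in thinned cells, and all 10 correlations were higher with spike-in scaling. With a cell left out the median pairwise rho was 0.12 to 0.19 and the rho with other G2/M genes 0.63 to 0.71. Without cell 52 the median pairwise rho was 0.17. The summed level then had a rho of 0.65 with other G2/M genes and 0.46 with endogenous UMIs. Without mitochondrial rows the summed share was 0.129%. No paired analysis was possible because there is 1 group. Depth limits what the counts can show, as all of the 10 genes but TOP2A and HMGB2 averaged under 10 UMIs per cell.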
